A study of Canis lupus familiaris with 27 samples.

Results

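Grade II simple carcinomas of the canine mammary gland were compared by the state of the regional lymph nodes, 6 metastatic carcinomas (with affected lymph nodes) against 5 non-metastatic carcinomas (without). All tumors whose sample label gave grade 2 were taken, which made 11 of the 27 tumors of the study. The other 16 were of grade III, 7 of them metastatic and 9 non-metastatic. RNA of each tumor had been hybridized to 1 Affymetrix Canine Genome 2.0 array, and each tumor came from a different dog. The samples had been macrodissected so that carcinoma cells made up most of each section, but the material was whole tissue, in which fewer cells of a type and less RNA per cell cannot be told apart.

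The 6 metastatic dogs were a Pudel of 16 years (tumor 1), a WHWT (West Highland White Terrier) of 16 years (tumor 2), a Dachshund of 13 years (tumor 3), a Spitz-Mix of 16 years (tumor 4), a Beagle of 11 years (tumor 5) and a WHWT of 12 years (tumor 6). The affected node was inguinal in 5 of them and axillary in tumor 6, and they survived 1 to 9 months. The 5 non-metastatic dogs were a Great Dane of 10 years (tumor 1), a Dalmatian of 10 years (tumor 2), an Irish Setter of 9 years (tumor 3), a Pudel of 11 years (tumor 4) and a Miniature Pinscher of 13 years (tumor 5), all of which survived more than 24 months. All 11 tumors were labelled negative for the estrogen receptor, and HER-2 was labelled positive in 5 of 6 metastatic tumors (negative in tumor 1) and in 5 of 5 non-metastatic tumors. The Great Dane with non-metastatic tumor 1 stands as grade III in the study's list of animals, while the sample label used here says grade 2.

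Lymph node status was not the only thing that differed between the 2 groups. The metastatic dogs were older, at 14.0 ± 2.28 years (SD, n = 6) against 10.6 ± 1.52 years (SD, n = 5) in the non-metastatic group (exact permutation test, two-sided, p = 0.0390, adjusted p = 0.117 over 6 measures). Their tumors measured 2.25 ± 1.33 cm (SD, n = 6) against 3.6 ± 1.95 cm (SD, n = 5; exact permutation p = 0.303). The GAPDH control probe sets differed between the 3′ and the 5′ end, a sign of RNA quality, by 1.79 ± 0.34 on the log2 scale in metastatic arrays (SD, n = 6) and by 1.19 ± 0.25 in non-metastatic arrays (SD, n = 5, exact permutation p = 0.0216, adjusted p = 0.117). The actin control probe sets went the other way, with 4.14 ± 0.56 in metastatic and 4.59 ± 0.65 in non-metastatic arrays (SD, exact permutation p = 0.251). Metastatic arrays had an upper quartile of 7.93 ± 0.04 (SD over 6 arrays) and non-metastatic arrays one of 7.81 ± 0.15 (SD over 5 arrays; exact permutation p = 0.113), and the lowest, 7.59, belonged to non-metastatic tumor 5. The sample names of 5 of the 6 metastatic and of 0 of the 5 non-metastatic tumors end in the letter T, whose meaning is not given in the sources used here.

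The epithelial identity of the tissue was visible in both groups. EPCAM, an adhesion molecule of epithelial cells, lay between 12.60 and 14.30 (log2 level) in metastatic and between 12.68 and 14.05 in non-metastatic tumors, and the luminal keratins KRT8 and KRT18 were measured far above the median of the arrays. ESR1, which encodes the estrogen receptor, stood between 2.19 and 3.40 in metastatic and between 2.31 and 4.48 in non-metastatic tumors, where the median over all probe sets of an array was 3.58 to 3.75. ERBB2, which encodes HER-2, was lowest in metastatic tumor 1, at 4.51, the tumor labelled HER-2 negative, against 6.02 to 8.01 in the other 5 metastatic tumors and 6.03 to 7.90 in the 5 non-metastatic tumors.

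Histological grade combines the formation of tubules, the variation of nuclei and the number of mitoses. Carcinomas of 1 grade share the combined grade but need not be alike in each feature. A mitosis score for each tumor is not among the labels used here. Spread to the regional lymph nodes takes carcinoma cells through invasion, survival in lymph and growth in the node. Cell division rests on a set of genes that are switched on together as a cell copies its DNA, builds the spindle and separates its chromosomes, whereas fibroblast growth factors, neurotrophins and their receptor tyrosine kinases carry signals between the cells of the gland, and luminal cells mature towards milk secretion.

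Between the grade II groups, 175 of 15115 genes (1.16%) were higher and 80 (0.529%) lower in metastatic carcinomas at an adjusted p under 0.05 (limma with Benjamini-Hochberg adjustment over all genes). The higher calls of largest difference included SLC16A3, PRC1, ORC6 and KIF15, and the lower ones FGFR1, FGF2, FST, NTRK2, NTRK3 and HEPACAM2. After the arrays were quantile-normalized again the split was 82 higher and 82 lower. At an unadjusted p under 0.05 the counts were 1683 higher (11.1%) and 913 lower (6.04%). The median difference was 1.27 on the log2 scale over the higher calls and -1.47 over the lower calls, against 0.00 over all genes. The 6 metastatic values lay wholly above the 5 non-metastatic values in 159 of the 175 higher calls, where 391 of all genes (2.59%) did so, and wholly below them in 70 of the 80 lower calls, where 171 of all genes (1.13%) did so. Non-overlap and call were read from the same values, so the first count is part of what a call is. Metastatic tumor 5 was the least separated, being above every non-metastatic tumor in 163 of the 175 higher calls, while the other 5 were so in 172 to 175. With thresholds of a 1.7-fold change and an adjusted p under 0.001, applied to 42860 probe sets, 0 probe sets were higher and 1 was lower (0.00233%), a probe set without gene symbol on the platform and with a log2 difference of -2.20 (adjusted p = 0.000324 from limma). At an adjusted p under 0.05, 314 probe sets (0.733%) were higher and 237 (0.553%) lower.

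SLC16A3, which encodes the lactate exporter MCT4, had the largest measured difference of all higher calls. Its log2 level was 6.00 at the lowest, 7.90 at the median and 8.26 at the highest in metastatic tumors, against 1.89, 2.21, 1.68, 1.71 and 1.76 in the 5 non-metastatic tumors. All 6 metastatic tumors were far above all 5 non-metastatic ones, which lay below the median of their arrays. The measured difference was 5.56 ± 0.46 (SE) with an adjusted p of 0.00194 from limma. The non-metastatic signal was too low for a fold to be read. SLC16A3 was among 7 of the 255 calls that kept an adjusted p under 0.05 when each of the 11 tumors was left out in turn, the others being ATF6, SLC35B1, UFM1, AATF, PRADC1 and LOC481674.

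**Figure D1:**
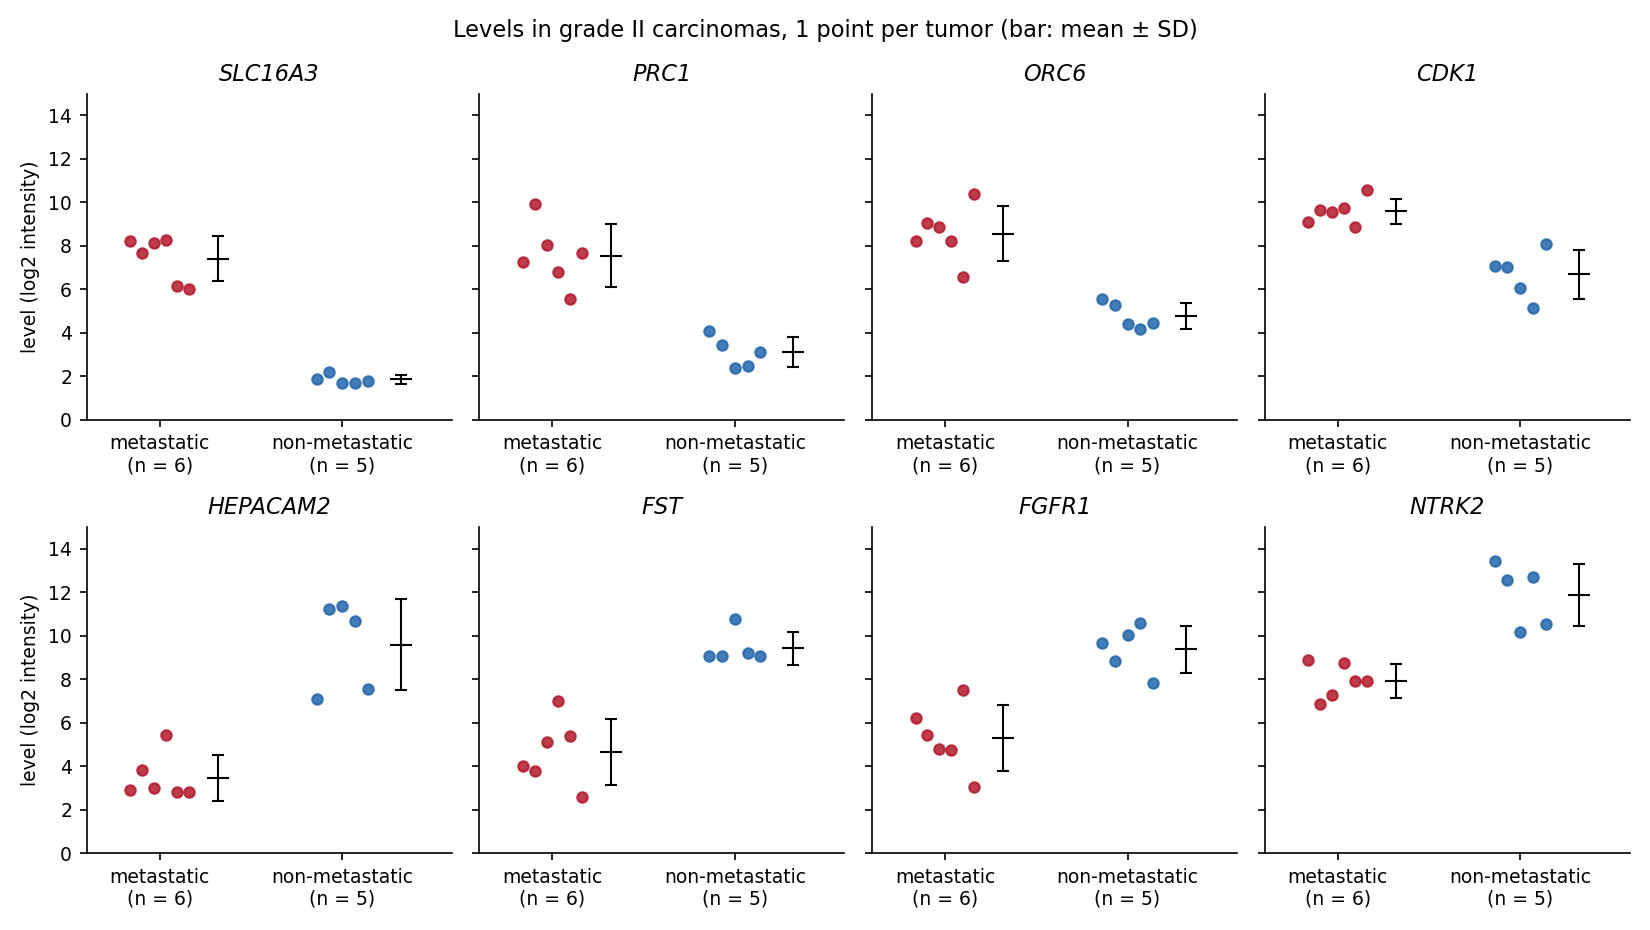
Level of 8 genes in each grade II carcinoma (y axis, log2 intensity), 6 metastatic tumors at the left of each panel and 5 non-metastatic tumors at the right, with mean and SD beside the points. The upper row holds 4 genes called higher and the lower row 4 genes called lower, and in all 8 panels the groups do not overlap.

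The 3 lists of cell division genes had the highest medians of the 37 lists. Mitosis and spindle assembly were represented by 34 genes, of which 13 rose and 0 fell, and 33 had a positive difference, with a median of 2.73. Of 29 kinetochore and centromere genes 4 rose and 0 fell (median 1.87), and of 48 DNA replication genes 9 rose and 0 fell (median 1.28). The backgrounds are 1.16% of all genes called higher and a median of 0.00, or 0.15 over the 8765 genes with probe sets above the median brightness. The exceptions in sign were ANLN (-0.30, adjusted p = 0.428), CENPN (-0.40, adjusted p = 0.529) and POLD2 (-0.20, adjusted p = 0.769), all from limma. Together the 3 lists held 26 of the 175 higher calls. The mean level of the 34 mitosis genes was 7.14, 8.55, 7.99, 7.31, 6.29 and 8.74 in metastatic tumors 1 to 6, against 5.64, 5.35, 5.18, 4.84 and 5.90 in non-metastatic tumors 1 to 5. Metastatic tumor 5 was the closest to the non-metastatic tumors, and metastatic tumors 2 and 6 were the farthest from them.

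PRC1, which bundles the microtubules of the central spindle, had a log2 level of 5.53 at the lowest, 7.47 at the median and 9.92 at the highest in metastatic tumors, against 4.08, 3.45, 2.38, 2.49 and 3.13 in non-metastatic tumors. The difference was 4.43 ± 0.68 (SE; adjusted p = 0.0257 from limma), and the non-metastatic mean of 3.11 lay below the median of the arrays. Its 3 other probe sets had the same sign and smaller differences, 0.31 to 2.13. CDK1, the kinase that drives entry into mitosis, stood at 8.88, 9.60 and 10.56 (lowest, median, highest) in metastatic tumors and at 7.07, 7.01, 6.07, 5.16 and 8.10 in non-metastatic tumors, a difference of 2.90 ± 0.50 (SE; adjusted p = 0.0278 from limma). PLK1, a kinase of spindle assembly, stood at 5.66, 7.80 and 9.64 in metastatic tumors and at 5.56, 3.25, 4.83, 4.00 and 5.29 in non-metastatic tumors (difference 3.23 ± 0.67, SE; adjusted p = 0.0472 from limma). Its lowest metastatic level, 5.66, lay just above the highest non-metastatic level, 5.56. The cyclin CCNA2 (3.55) and the checkpoint kinase BUB1B (3.32) overlapped between groups through metastatic tumor 5, whose CCNA2 level of 5.87 lay under the 5.91 of non-metastatic tumor 5. ECT2 (3.04), which starts the cleavage furrow, NEK2 (2.68), a centrosome kinase, the kinesin KIF15 (3.73), PBK (3.67), CDCA3 (3.56) and DEPDC1 (3.73) rose as well, DEPDC1 with an overlap. The other probe set of DEPDC1, at -0.12, had a mean level of 2.54 over the 27 tumors, below the median of the arrays.

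At the kinetochore, SKA3, a subunit of the complex that couples chromosomes to microtubules, stood at 6.38, 7.59 and 8.22 (lowest, median, highest) in metastatic tumors and at 3.59, 4.79, 3.17, 3.63 and 4.46 in non-metastatic tumors. Its difference of 3.49 ± 0.42 (SE) had an adjusted p of 0.0146 from limma, which reached 0.0728 in the 1 of the 11 fits with a tumor left out where the call was lost. MIS18A (3.10), CENPP (2.85) and MIS12 (0.95), all centromere or kinetochore proteins, also rose. Without overlap between the groups, ESCO2 (3.56), which acetylates cohesin to hold sister chromatids together, rose as well.

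ORC6, a subunit of the origin recognition complex, had a log2 level of 6.58 at the lowest, 8.56 at the median and 10.39 at the highest in metastatic tumors, against 5.55, 5.27, 4.40, 4.19 and 4.45 in non-metastatic tumors (difference 3.79 ± 0.58, SE; adjusted p = 0.0258 from limma). ORC1 rose by 3.53 ± 0.70 (SE), GINS4 and GINS1, subunits of the replicative helicase, by 3.55 and 2.02, MCM10, which helps to start the helicase, by 2.80, and FEN1, the nuclease that trims Okazaki fragments, by 1.88. The 2 other probe sets of FEN1 were at -0.07 and 2.45. The first of these had a mean level of 2.61 over the 27 tumors, below the median of the arrays. Of 41 DNA repair genes 1 rose (2.44%, against 1.16% of all genes, median 0.45, 34 positive). An unadjusted p under 0.05 on the higher side was found for 13 of them (31.7%, against 11.1% of all genes). The called gene was the checkpoint kinase CHEK1 (1.63, adjusted p = 0.0377 from limma). Of genes named after their values were seen, CCNE1, the cyclin of S phase entry (2.63 ± 0.35, SE; adjusted p = 0.0237 from limma), and BIRC5, a subunit of the chromosomal passenger complex (2.95 ± 0.51, SE; adjusted p = 0.0280), rose too.

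**Figure D2:**
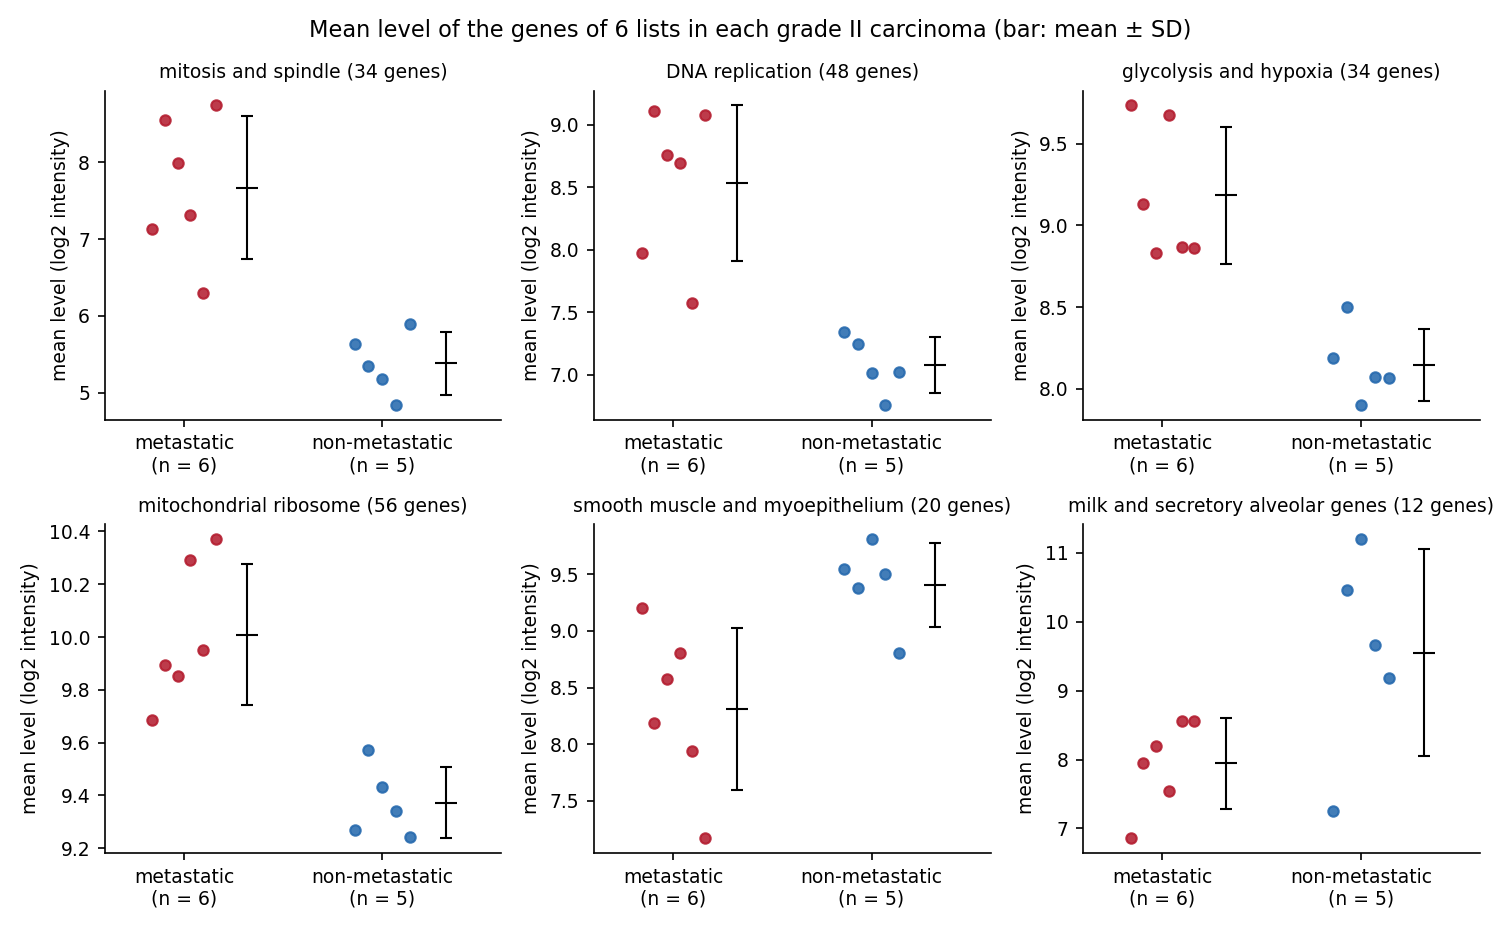
Mean level of the measured genes of 6 lists (y axis, log2 intensity, a different range in each panel) in each grade II carcinoma, metastatic tumors at the left and non-metastatic tumors at the right, with mean and SD. The groups do not overlap for mitosis, DNA replication, glycolysis and hypoxia, or the mitochondrial ribosome, and they overlap for smooth muscle and for milk genes.

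The lists of energy and protein metabolism held fewer calls, with smaller medians. Over all genes 1.16% were called higher and 50.4% were positive. The median was 0.00 over all genes and 0.15 over the 8765 genes with brighter probe sets. Of 34 glycolysis and hypoxia genes 4 rose (11.8%) and 0 fell (median 0.89, 30 positive). Beside SLC16A3 these were ANKRD37, a gene induced by low oxygen (1.77 ± 0.34, SE), PGK1, a glycolytic kinase (1.33 ± 0.26), and GPI, which converts glucose 6-phosphate (0.75 ± 0.15), with adjusted p of 0.0383, 0.0391 and 0.0399 from limma. PGK1 was measured at 12.32, 13.58 and 13.87 (lowest, median, highest) in metastatic tumors and at 11.88, 12.48, 11.86, 11.99 and 12.04 in non-metastatic tumors, overlapping through metastatic tumor 3, and its 2 other probe sets were at -0.05 and 0.18. These 2 probe sets had mean levels of 2.52 and 2.39 over the 27 tumors, below the median of the arrays. PGK1 was also the 1 gene that rose among 13 housekeeping genes (7.69%, median 0.22). The mean level of these 13 was 10.37 to 10.70 in metastatic and 10.10 to 10.27 in non-metastatic tumors, without overlap. An unadjusted p under 0.05 on the higher side was found in limma for 6 of them (46.2%, against 11.1% of all genes).

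Of 56 mitochondrial ribosome genes 3 rose (5.36%, against 1.16% of all genes) and 0 fell, MRPS31 (0.67), MRPL41 (1.12) and MRPS12 (1.06). Their median was 0.67, with 52 positive (92.9%, against 50.4% of all genes). Cytosolic ribosome genes had the other sign, with 9 of 39 positive, a median of -0.20 and 0 called in either direction. Their smallest p belonged to RPL9 (-0.35, adjusted p = 0.0526 from limma), whose 6 metastatic levels, 14.69 to 15.10, lay below the 5 non-metastatic ones, 15.15 to 15.27. Among 40 genes of oxidative phosphorylation (median 0.33) 1 rose (2.5%), UQCRC2 of complex III (0.78), and its 3 other probe sets ranged from -1.05 to 1.05. NNT (2.02 ± 0.36, SE; adjusted p = 0.0313 from limma), which makes NADPH at the inner mitochondrial membrane, rose without overlap.

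Of 35 chaperone genes (median 0.36) 3 rose (8.57%, against 1.16% of all genes), the chaperonins CCT5 (0.68) and HSPD1 (0.64) and the histone co-chaperone DNAJC9 (1.49). Of 30 proteasome genes (median 0.48) 1 rose (3.33%), PSMD14 (1.01), and 28 were positive, against 50.4% of all genes. Of 20 cholesterol synthesis genes 0 were called although 19 were positive (median 0.84). SQLE, which oxidizes squalene, differed by 2.55 ± 0.63 (SE; adjusted p = 0.0730 from limma) and ranged from 9.74 to 12.95 in metastatic against 8.08 to 10.00 in non-metastatic tumors, and ACAT2 by 1.17 (adjusted p = 0.0713). The apoptosis list had 1 call among 27 (3.70%, median 0.44), AATF, an antagonist of apoptosis (1.14 ± 0.13, SE, adjusted p = 0.0105 from limma).

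**Figure D3:**
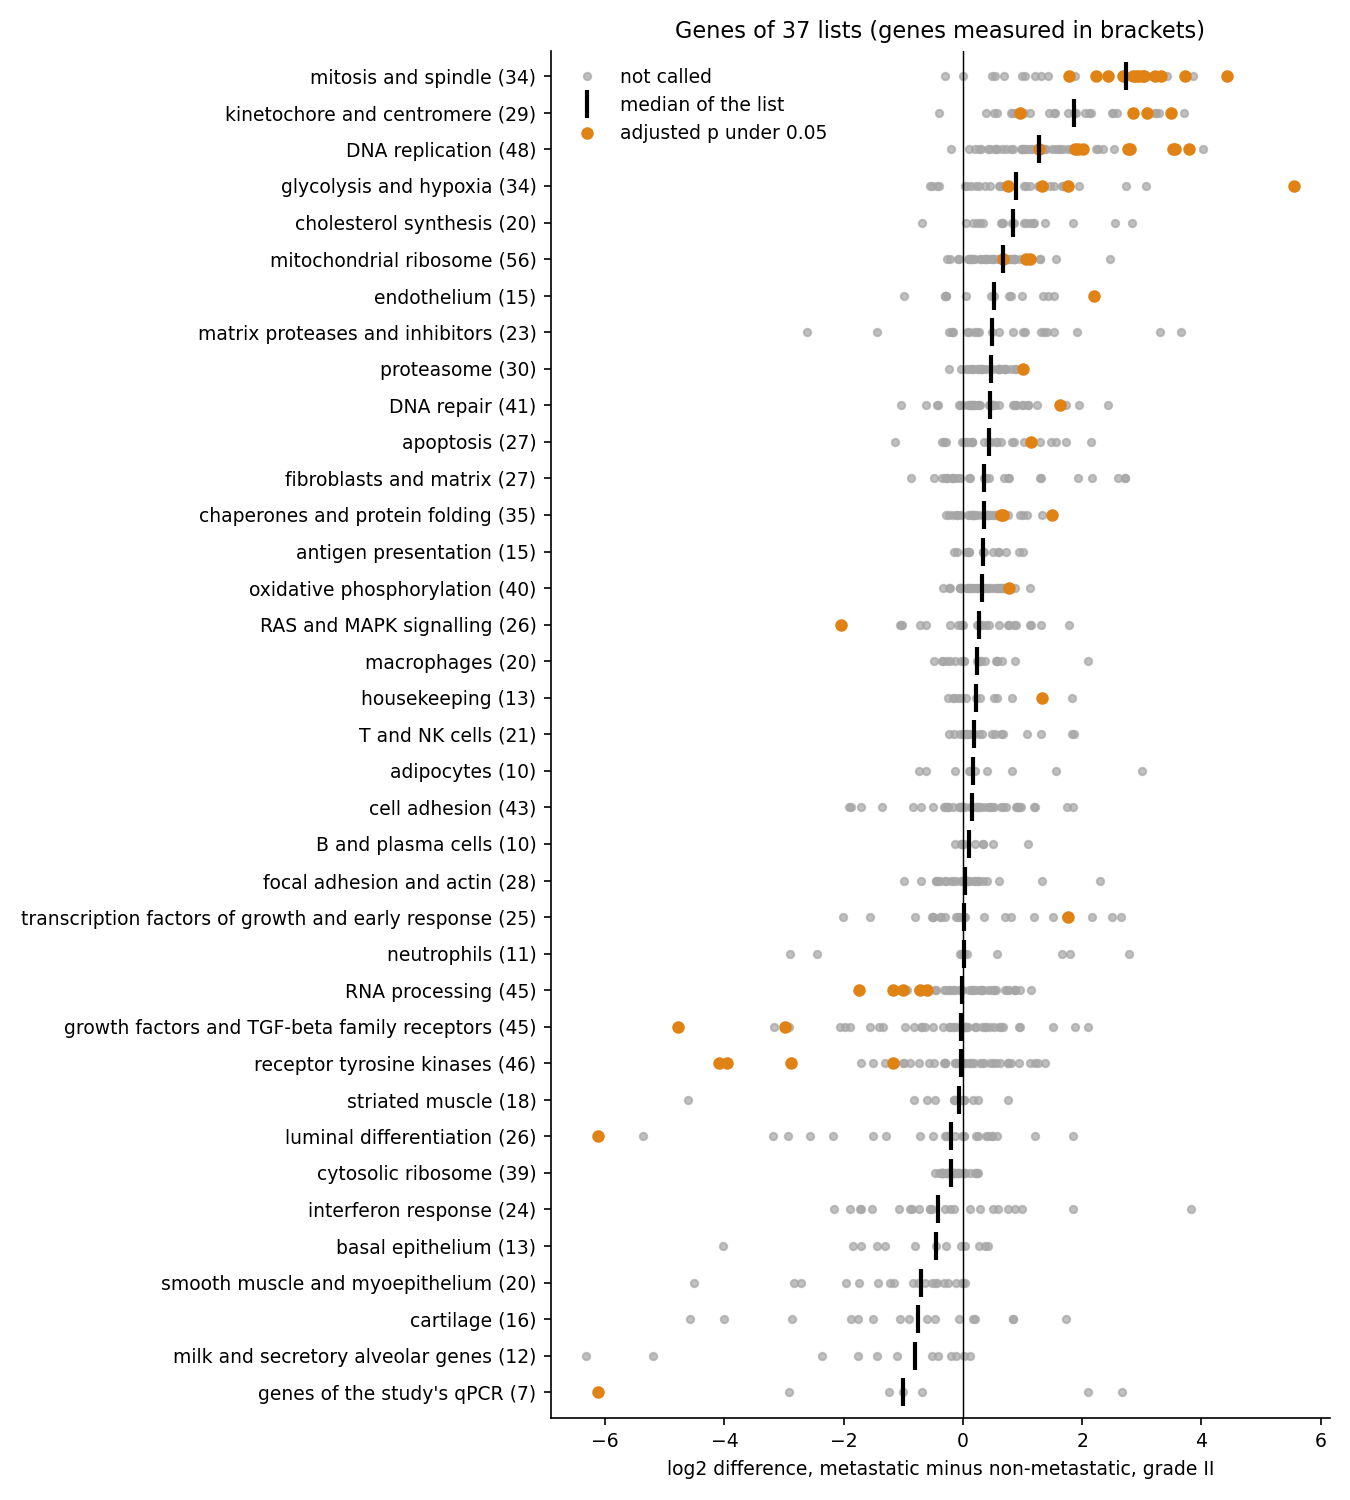
Log2 difference, metastatic minus non-metastatic, of every measured gene of 37 lists (x axis), 1 list per row, with called genes in orange and the list median as a bar. The 3 cell division lists have the highest medians, 2.73, 1.87 and 1.28, and called genes lie left of 0 mainly among receptors, growth factors and RNA processing genes.

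Receptors and growth factors were among the lower calls. Of 46 receptor tyrosine kinases 0 rose and 4 fell, FGFR1, NTRK2, NTRK3 and EPHB1, against a background of 0.529%, while the median of the list was -0.03, so that most receptors did not move with these 4. Of 45 growth factors and TGF-beta family genes 0 rose and 2 fell, FST and FGF2 (median -0.03).

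FGFR1, a receptor of fibroblast growth factors, stood at 3.03, 5.12 and 7.53 (lowest, median, highest) in metastatic tumors, against 9.65, 8.83, 10.05, 10.57 and 7.83 in non-metastatic tumors. The groups did not overlap, but metastatic tumor 5 came within 1 log2 unit of non-metastatic tumor 5. The difference was -4.09 ± 0.77 (SE; adjusted p = 0.0348 from limma), that is 17.0-fold lower in metastatic tumors. This fold is uncertain, because the lowest metastatic level of FGFR1, 3.03, lay below the median of the arrays. Its ligand FGF2 stood at 7.19, 7.81 and 9.92 in metastatic tumors and at 11.63, 11.09, 12.06, 11.79 and 10.00 in non-metastatic tumors, a difference of -2.99 ± 0.58 (SE; adjusted p = 0.0383). In both genes metastatic tumor 5 was the highest of its group and non-metastatic tumor 5 the lowest of its group.

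SPRY1 and ETV5, which FGF signalling induces in many tissues, were lower too. SPRY1, an inhibitor of receptor signalling, stood at 6.17, 7.11 and 7.93 (lowest, median, highest) in metastatic and at 9.51, 9.09, 9.14, 9.39 and 8.88 in non-metastatic tumors (-2.04 ± 0.31, SE; adjusted p = 0.0257 from limma). It was the 1 call among 26 genes of RAS and MAPK signalling (3.85%, against 0.529% of all genes called lower), whose median was 0.28. ETV5, an ETS transcription factor, stood at 2.98, 3.79 and 4.53 in metastatic and at 7.60, 6.85, 6.68, 8.22 and 4.58 in non-metastatic tumors (-2.96 ± 0.59, SE; adjusted p = 0.0414), with non-metastatic tumor 5 next to the metastatic tumors. The other FGF receptors measured were not called.

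FST encodes follistatin, which binds activin. Its level was 2.57, 4.56 and 7.02 (lowest, median, highest) in metastatic tumors and 9.06, 9.06, 10.79, 9.20 and 9.06 in non-metastatic tumors, with no overlap. The difference of -4.78 ± 0.72 (SE; adjusted p = 0.0254 from limma) makes it 27.5-fold lower in metastatic tumors. The lowest metastatic level, 2.57, lay below the median of the arrays, so this fold is uncertain.

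The neurotrophin receptors NTRK2 and NTRK3 fell as well. NTRK2 stood at 6.85, 7.91 and 8.87 in metastatic tumors and at 13.43, 12.56, 10.19, 12.69 and 10.52 in non-metastatic tumors, without overlap (-3.95 ± 0.65, SE; adjusted p = 0.0278 from limma), and of its 4 other probe sets 2 had the same sign, ranging from -3.97 to 0.03. NTRK3 fell by 2.89 on the log2 scale (adjusted p = 0.0280 from limma), while its 3 other probe sets lay between -0.08 and -0.02. These 3 had mean levels of 1.92 to 2.48 over the 27 tumors, below the median of the arrays. The NTRK2 probe set at -3.97 had a mean of 9.16, and the other NTRK2 sets not used had means of 2.13 to 2.65. EPHB1, an ephrin receptor, fell by 1.18 (adjusted p = 0.0488). Among the receptors that were not called, EGFR had -1.31 (adjusted p = 0.0847).

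HEPACAM2, a cell adhesion protein with immunoglobulin domains, had the largest measured difference of all lower calls. HEPACAM2 was the 1 call among 26 luminal differentiation genes (3.85%, against 0.529% of all genes called lower, median -0.19). Its level was 2.79, 2.93 and 5.44 (lowest, median, highest) in metastatic tumors, against 7.08, 11.25, 11.36, 10.67 and 7.56 in non-metastatic tumors. The level was under 4 in 5 of the 6 metastatic tumors, metastatic tumor 4 was the highest, and non-metastatic tumors 1 and 5 were the lowest of their group. The measured difference was -6.13 ± 0.92 (SE; adjusted p = 0.0254 from limma), against metastatic tumors whose median lay below that of the arrays. GATA3, the transcription factor of luminal fate, which was picked out after its values were seen, differed by -5.37 ± 1.25 (SE) and was not called (adjusted p = 0.0635). Further leading genes fell, among them UNC93A (-4.37), RIMS1 (-4.25), a protein of vesicle release, KLHL13 (-4.13), the transcription factor ZBTB16 (-4.07), the lipocalin APOD (-3.66) and CACHD1 (-3.29), together with C5H11orf53 (-3.38) and LOC481674 (-2.92). RIMS1 and KLHL13 overlapped between groups.

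Milk genes were variable. LALBA, alpha-lactalbumin, was between 2.42 and 2.64 in 5 metastatic tumors and 6.94 in metastatic tumor 6, against 2.66, 12.28, 14.51, 7.80 and 10.68 in non-metastatic tumors, so that non-metastatic tumor 1 was as low as the metastatic ones. Its difference of -6.31 ± 1.91 (SE) was larger in size than that of HEPACAM2 but was not called (adjusted p = 0.132 from limma). Of 12 milk and alveolar genes 2 were positive, 0 were called and the median was -0.81, with MFGE8, a milk fat globule protein, at -1.43 (adjusted p = 0.180).

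Genes of cells that surround the luminal epithelium were without calls at the probe set kept per gene. Of 20 smooth muscle and myoepithelial genes 2 were positive (median -0.70, 0 called). MYH11, smooth muscle myosin, was at 4.03 to 11.02 in metastatic and 11.22 to 13.67 in non-metastatic tumors (-4.51 ± 1.06, SE, adjusted p = 0.0663 from limma). Its 3 other probe sets were at -4.88, -4.82 and -4.16, with adjusted p over all probe sets of 0.0535, 0.0323 and 0.0491 from limma. MYLK was at -2.71 (adjusted p = 0.0657). All 5 markers of this cell type chosen to check the tissue had negative differences (median -2.71, 0 called), and their summed level, taken on the linear scale and then as log2, ranged from 13.45 to 15.80 in metastatic and from 15.03 to 15.73 in non-metastatic tumors. Their part in the lower calls was not tested. Among 13 basal epithelial genes 0 were called (median -0.45), with KRT17 at -4.02 (adjusted p = 0.0849) and no overlap. The 2 other probe sets of KRT17 were at -4.52 and -0.13, the second with a mean level of 1.99 over the 27 tumors. Cartilage genes (16 measured, median -0.75) had SOX5 at -1.76 (adjusted p = 0.0553) and EPYC at -1.88 (adjusted p = 0.121), and striated muscle genes (18 measured, median -0.06) had TNNI2 at -4.61 with levels of 1.32 to 11.16 in metastatic and 10.00 to 12.22 in non-metastatic tumors (adjusted p = 0.222) and MYH2 at -0.61 (adjusted p = 0.256). Neither list held a call.

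RNA processing genes held lower calls. Of 45 measured, 0 rose and 5 fell (11.1%, against 0.529% of all genes, median -0.02), PNISR (-1.75), RBM5 (-1.17), DDX17 (-0.71), SON (-0.60) and RBM25 (-1.01), all of them factors of splicing or proteins of nuclear speckles. RBM5 stood at 9.87, 10.10 and 10.83 (lowest, median, highest) in metastatic and at 11.31, 11.28, 11.46, 11.48 and 11.34 in non-metastatic tumors (adjusted p = 0.0254 from limma). The non-metastatic levels lay close together and above all metastatic levels. Of the 9 other probe sets of SON 7 had the same sign, and of the 4 of PNISR 3.

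Stromal and immune lists held 1 call. PLVAP, a protein of the fenestrae of endothelial cells, was 4.04, 5.29 and 6.68 (lowest, median, highest) in metastatic tumors and 3.27, 3.16, 3.43, 3.46 and 2.91 in non-metastatic tumors (2.19 ± 0.42, SE, adjusted p = 0.0378 from limma). It was the 1 call among 15 endothelial genes (6.67%, against 1.16% of all genes, median 0.53). Of 27 fibroblast and matrix genes 0 were called (median 0.36). LOXL2, a collagen cross-linking enzyme, differed by 2.72 ± 0.65 (SE; adjusted p = 0.0700) without overlap, and COL1A1, the main collagen, by 1.29 (adjusted p = 0.259). Mean levels of this list ran from 8.52 in metastatic tumor 6 to 13.14 in metastatic tumor 1, against 9.63 to 10.63 in the non-metastatic tumors. Matrix proteases and inhibitors had 0 calls among 23 (median 0.48), with the collagenase MMP13 at 3.31 (adjusted p = 0.155) and the plasminogen activator PLAT at 1.92 (adjusted p = 0.149).

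The immune lists were without calls. T and NK cell genes (21 measured, median 0.19) had GZMA at 1.83 (adjusted p = 0.333) and GZMB at 1.86 (adjusted p = 0.376), granzymes that were highest in metastatic tumor 6, at 7.88 and 9.52. B and plasma cell genes (10 measured, median 0.11) had CD79B at 1.10 (adjusted p = 0.488), at 5.47 and 5.48 in metastatic tumors 2 and 6 and at 2.09 to 2.29 in the other 9 tumors, and PAX5 at -0.13. Macrophage genes (20 measured, median 0.24) had MARCO at 2.11 (adjusted p = 0.249) and ITGB2 at 0.58 (adjusted p = 0.311). Neutrophil genes (11 measured, median 0.02) had TREM1 at 1.80 (adjusted p = 0.179) and S100A8 at -2.90 (adjusted p = 0.291), and adipocyte genes (10 measured, median 0.17) had FABP4 at 3.01 (adjusted p = 0.400) and GPD1 at -0.61 (adjusted p = 0.320). Of 24 interferon response genes 0 were called (median -0.41), ISG20 having 3.82 (adjusted p = 0.0555) and IFI6 -1.72 (adjusted p = 0.234), and of 15 antigen presentation genes 0 (median 0.34), with PSMB10 at 0.60 and TAPBP at 0.73.

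Cell adhesion genes (43 measured, median 0.15) held 0 calls, CDH2 being at -0.70 (adjusted p = 0.0769 from limma) without overlap and ITGA6 at -1.71 (adjusted p = 0.115). Focal adhesion and actin genes (28 measured, median 0.04) held 0 calls too, with the formin DIAPH3 at 2.30 (adjusted p = 0.0669) and the focal adhesion kinase PTK2 at 1.33 (adjusted p = 0.0872), both without overlap. Among 25 transcription factors of growth and early response (median 0.02) 1 rose (4%, against 1.16% of all genes). This was RBL1, a relative of the retinoblastoma protein (1.77, adjusted p = 0.0457 from limma), whose 2 other probe sets were at -0.14 and -0.07. Those 2 had mean levels of 2.38 and 2.75 over the 27 tumors, below the median of the arrays. RASL11A (3.19), a small GTPase, rose outside any list.

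Genes that had also been chosen for quantitative PCR were read apart, and 7 of them matched a gene of the array. In grade II tumors HEPACAM2 alone of these was called. AURKA, the Aurora A kinase, stood at 6.96, 8.81 and 10.42 (lowest, median, highest) in metastatic and at 5.98, 5.76, 6.12, 5.21 and 6.60 in non-metastatic tumors, a difference of 2.67 ± 0.61 (SE; adjusted p = 0.0616 from limma) without overlap. BMP6 had 2.09 (adjusted p = 0.293), ALOX12 -1.24 (adjusted p = 0.154), ERBB4 -1.01 (adjusted p = 0.183), IGF2R -0.69 (adjusted p = 0.314) and TGFBR3 -2.92 (adjusted p = 0.199). The median of the 7 was -1.01. They belonged to a signature derived from these tumors and had been described in canine mammary tumors before, so they are not independent evidence of direction.

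The grade II calls were then read in the 16 grade III tumors, which are other dogs. All 175 higher calls had a positive difference there and 14 of them passed an adjusted p under 0.05 (against 0.807% of all genes called higher in grade III), and of the 80 lower calls 74 were negative and 10 passed (against 0.615%). None passed in the other direction. The median difference of the higher calls was 1.27 in grade II and 0.84 in grade III, and that of the lower calls -1.47 and -0.77. Over all genes, 48.4% were positive and 51.6% negative in grade III. The genes had been selected on their grade II values and not on their grade III values. The names of 6 of the 7 metastatic and of 0 of the 9 non-metastatic grade III tumors end in T, the same imbalance as in grade II, and its part in the shared signs was not tested. Grade III tumors were grouped by lymph node status, not by later spread. Non-metastatic grade III tumor 8 came from a dog of 15 years and measured 7 cm. The study describes later lung metastases in the node-negative dog of that age and tumor size. In its clustering this tumor and another node-negative grade III tumor joined the metastatic tumors. Their part in the grade III differences was not tested. With each array quantile-normalized again, 80 of 82 higher and 79 of 82 lower calls kept their sign in grade III, where 1 and 7 passed (against 0.205% of all genes called higher and 0.490% called lower there). Of all genes, 53.0% were then positive and 47.0% negative in grade III. RRM1, a subunit of ribonucleotide reductase, was the member of the cell division lists that passed in both grades, with 1.27 in grade II (adjusted p = 0.0450) and 1.14 in grade III (adjusted p = 0.0466). OGT, which attaches N-acetylglucosamine to proteins and was picked out after its values were seen, passed in both, with -1.46 in grade II (adjusted p = 0.0237) and -1.10 in grade III (adjusted p = 0.0321).

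**Figure D4:**
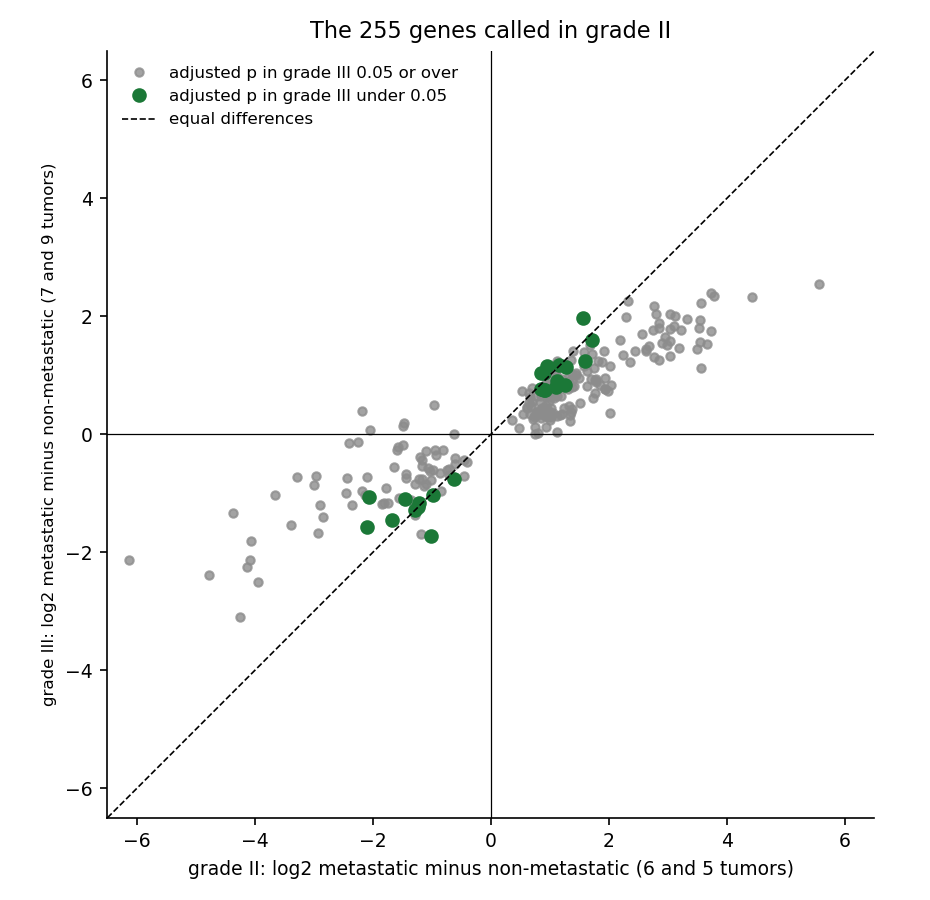
Log2 difference, metastatic minus non-metastatic, of the 255 genes called in grade II, in grade II tumors on the x axis and in grade III tumors on the y axis, with the line of equal differences. All 175 higher calls and 74 of the 80 lower calls kept their sign in grade III, and most points lie between the line and 0.

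A difference of the metastatic contrast between the grades was tested directly, as an interaction in a fit of all 27 tumors. At an adjusted p under 0.05, 0 of 15115 genes differed (limma), and 402 (2.66%) did at an unadjusted p under 0.05, 48 of them among the 255 calls, which had been chosen for their size in grade II. The interaction with the smallest p belonged to RIN2, a RAB5 exchange factor, which had -0.96 in grade II and 0.50 in grade III (unadjusted p = 0.000319). Others at the head were MARK1 (1.35 in grade II, 0.22 in grade III), GPI (0.75 and 0.01), LOXL2 (2.72 and 0.23), NNT (2.02 and 0.37) and THEM4 (1.31 and -0.07) on the positive side, with DRD3 at 0.06 and -1.13. On the negative side KLHL2 had -0.38 in grade II and 0.34 in grade III, PPP4R3B -0.62 and 0.01, CLPX -0.59 and 0.42, EPYC -1.88 and -0.04 and KANSL1L -1.48 and 0.18. SPRY1, at -2.04 in grade II, was at 0.07 in grade III (unadjusted p = 0.0171 for the interaction), and FGFR1 at -4.09 and -2.13 (unadjusted p = 0.0857 for the interaction). None of these passed adjustment, so no gene was shown to depend on grade. Without non-metastatic grade II tumor 1, whose grade differs between label and list, 0 genes had an adjusted p under 0.05 as well (limma).

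The number of calls depended on single tumors and on what else entered the fit, while the signs did not. Leaving out 1 tumor in turn gave 280, 11, 45, 81, 390 and 44 higher genes without metastatic tumors 1 to 6 and 12, 44, 11, 6 and 89 without non-metastatic tumors 1 to 5. The lower genes numbered 124, 4, 20, 52, 138 and 25 without metastatic tumors 1 to 6 and 13, 22, 8, 1 and 83 without non-metastatic tumors 1 to 5. Non-metastatic tumor 1, without which 12 genes were higher and 13 lower, is the one that the study lists as grade III. The 255 calls had an unadjusted p of at most 0.00288 in every one of these fits. The calls had been chosen in the same tumors, so a small p and a kept sign were largely given in advance. Of the 175 higher and 80 lower calls, 6 and 1 kept an adjusted p under 0.05 without non-metastatic tumor 4, and 171 and 75 without metastatic tumor 5. With age in the fit 7 genes were higher and 1 lower, with tumor size 7 and 3, with the upper quartile of the array 10 and 15, and with the GAPDH difference 2 and 0. With the GAPDH difference in the fit 1 of the 255 calls kept an adjusted p under 0.05 (B3GNT2, 1.67, named after its values were seen), and SLC16A3 (5.99) and ATF6 (1.69) each had an adjusted p of 0.0507 from limma. All 255 calls kept their sign in each of these fits, including that with the GAPDH difference. Lymph node status and these measures were partly tied in 11 tumors, and what each contributes was not tested beyond these fits.

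**Figure D5:**
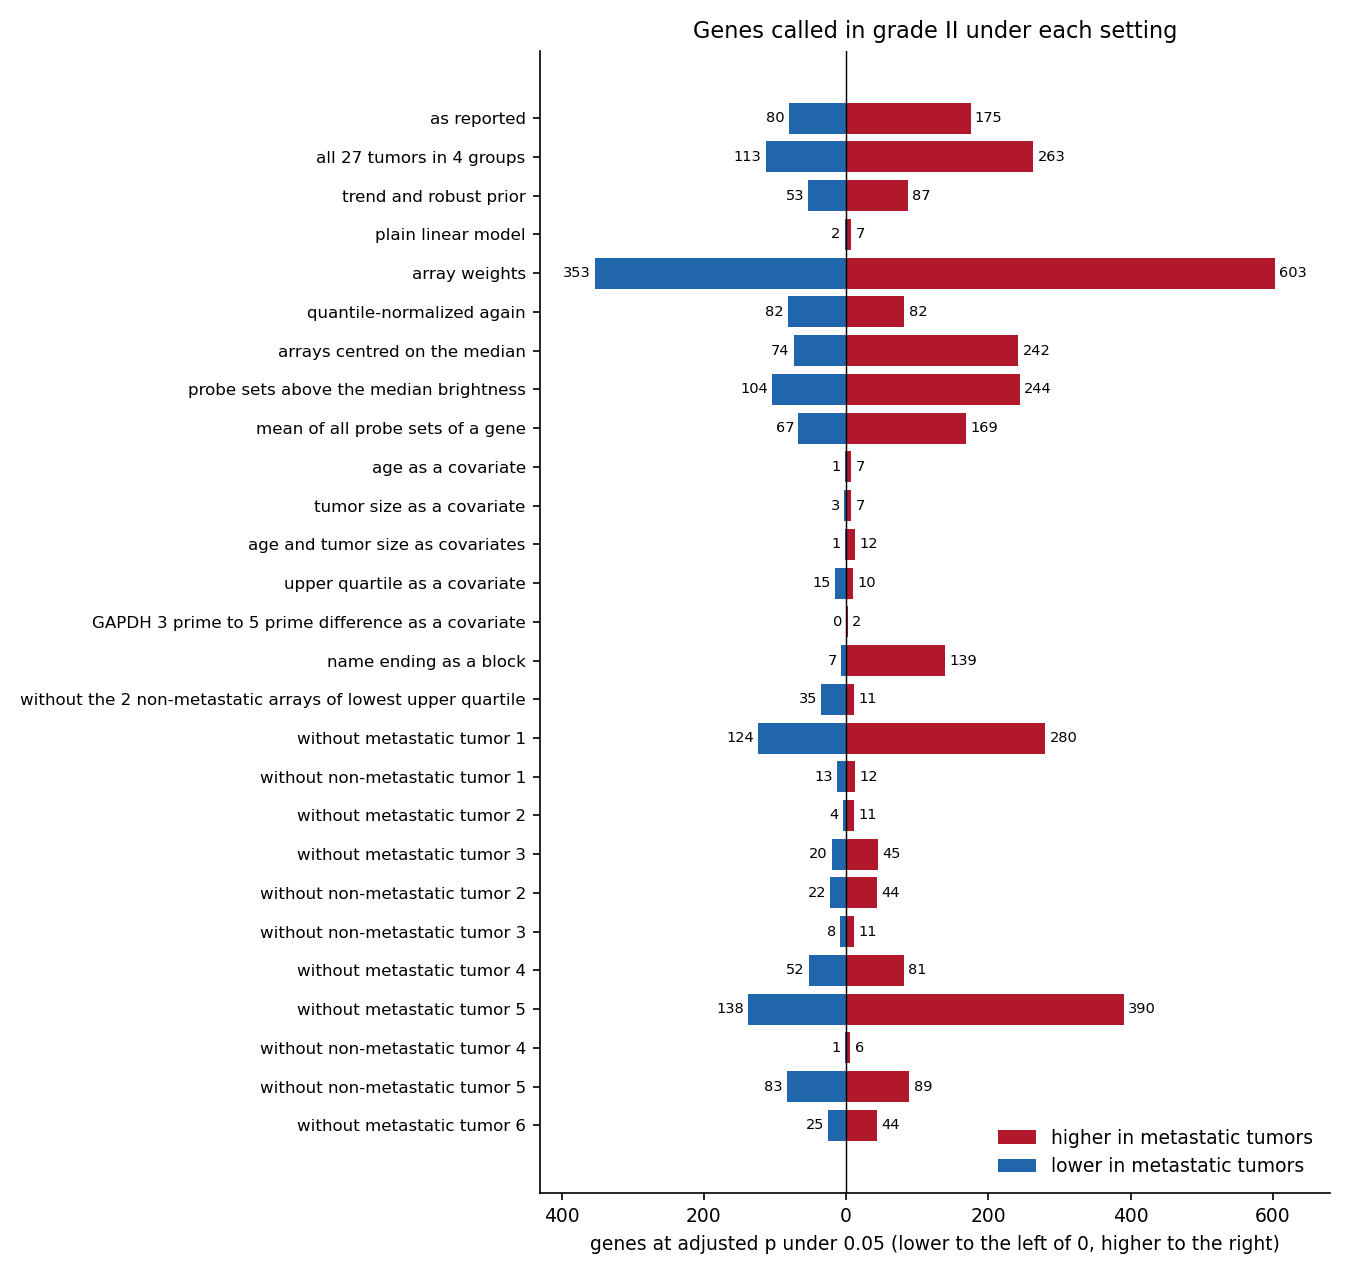
Genes at an adjusted p under 0.05 in grade II (x axis, lower genes to the left of 0 and higher genes to the right) in the fit reported and in each alternative. The bars run from 2 higher genes with the GAPDH difference in the fit to 603 with array weights.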

How the data were processed

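RNA of 27 canine mammary carcinomas was measured on Affymetrix Canine Genome 2.0 arrays. The authors processed the arrays in Partek Genomic Suite by its gcRMA procedure, which corrects the background, normalizes the quantiles and summarizes by median polish. The deposited values are therefore log2 intensities and were used unchanged. Of 43035 probe sets, 175 controls were left out. Of the 42860 tested, 29254 carry 1 gene symbol on the platform, 439 several and 13167 none, and of the probe sets of each of 15115 genes the one with the highest mean over the 27 tumors was kept, although 8254 genes have more than 1.

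The 11 grade II tumors alone entered the main comparison, with lymph node status as the factor (limma 3.58.1 in R 4.3.3, linear model with empirical Bayes, Benjamini-Hochberg adjustment over all genes or probe sets). A gene was called at an adjusted p under 0.05. The methods' thresholds were applied to probe sets. The interaction with grade was fitted to all 27 tumors, and the 16 grade III tumors were fitted apart. Clinical and array measures were compared by exact permutation over 462 splits, whose smallest possible p is 0.00433. Gene lists are described by counts and medians, without a set test. Of 1147 genes in the 37 lists, 992 were matched. On simulated data with these group sizes, over 15115 genes, a log2 change of 1 was recovered in 46 of 100 genes and a change of 2 in 78 of 100, beside 4 false calls. The simulated noise was drawn independently for each gene, without array effects or covariates. These counts hold for that setting and do not give the false calls among these arrays. Grade was taken from the sample labels.

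The members, lists and tests were chosen with earlier results of these data known. The genes named are the 15 of largest difference among the calls in each direction, up to 4 calls of smallest p per list in the direction of more calls and up to 2 in the other (2 of smallest p where none was called), the qPCR genes, the 6 interactions of smallest p in each direction and 6 genes that check the labels. Genes named after their values were seen are marked so. The signs of other probe sets were checked: 179 of the 255 called genes have 325 others, 275 of them of the same sign, and 4 had the opposite sign at an unadjusted p under 0.05. Alternatives covered the choice of fit, weights for arrays, scaling, leaving out dim probe sets, averaging the probe sets of a gene, age, size, array quality, the ending of the sample name and each tumor left out. The number of arrays limits the precision. The q-value and the clustering of the study were not used here. Permutation tests used scipy 1.17.1 and plots matplotlib 3.10.9 (Python 3.11.15).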

Additional observations from a re-analysis of the deposited data

Results flagged for a closer look

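Per-tumor levels of the named genes, and the clinical and array measures, were searched for single tumors far from the rest of their group (Dixon's test), which flags about 1 in 20 groups by chance. Of 288 groups of values, 24 were flagged, and no cause was tested.

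Metastatic tumor 5 stood nearer to the non-metastatic tumors in several genes, with a log2 level of 3.36 for DEPDC1 (the other 5 metastatic tumors at 6.75 to 8.72), 5.87 for CCNA2 (8.12 to 8.94), 5.39 for UNC93A (2.58 to 3.28), 6.33 for ISG20 (8.42 to 9.15), 14.9 for S100A8 (7.08 to 9.78) and 3.40 for ESR1 (2.19 to 2.29). Metastatic tumor 1 stood apart at 12.60 for EPCAM (the others at 13.98 to 14.30), 10.58 for UFM1 (10.96 to 11.17) and 5.10 for GFRA1 (2.34 to 3.31), and its actin control difference was 3.06 (4.05 to 4.54 in the others). Metastatic tumor 4 stood apart at 6.51 for RIMS1 (3.15 to 4.34) and 7.57 for DRD3 (7.00 to 7.14), and metastatic tumor 6 at 6.94 for LALBA (2.42 to 2.64).

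Non-metastatic tumor 5, whose array had the lowest upper quartile, stood apart at 4.05 for C5H11orf53 (the other 4 non-metastatic tumors at 6.41 to 7.19), 3.99 for MARCO (3.03 to 3.21), 15.42 for S100A8 (11.54 to 12.45), 7.89 for TGFBR3 (10.78 to 11.68), 8.72 for STT3B (9.40 to 9.43), 4.06 for P4HA3 (3.15 to 3.41) and 12.37 for OGT (12.65 to 12.74), and its GAPDH control difference was 0.75 (1.24 to 1.39). Non-metastatic tumor 3 had 10.79 for FST (9.06 to 9.20). Non-metastatic tumor 1 had 6.4 for TAPBP (7.81 to 8.38) and measured 7 cm (2 to 3 cm in the others).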

How the results depend on the processing

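No paired analysis was possible because the labels give no replicate numbers shared between the groups, and tumor numbers follow the order of deposition and only name tumors. The fit with age and size together and that without the 2 non-metastatic arrays of lowest upper quartile (tumors 1 and 5) were chosen after seeing the data. Of the 255 calls, 252 were measured with dim probe sets left out. The calls measured kept their sign in the alternatives, except that N4BP2L2 (-0.82), named after its values were seen, was at 0.0081 with the mean of all probe sets.

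Against 175 higher and 80 lower genes, the calls numbered 263 and 113 with all 27 tumors in 4 groups, 87 and 53 with a trend and robust prior, 7 and 2 with a plain linear model, 603 and 353 with array weights, and 82 and 82 after quantile normalization again, which kept 81 of the higher and 74 of the lower calls. With covariates they numbered 7 and 1 (age), 7 and 3 (size), 12 and 1 (age and size), 10 and 15 (upper quartile) and 2 and 0 (GAPDH difference). Without the 2 arrays of lowest upper quartile they numbered 11 and 35. With name ending as a block, a fit in which metastatic tumor 1 alone carries the contrast with the non-metastatic tumors, they numbered 139 and 7, of which 8 and 2 were among the calls reported. Leaving out 1 tumor gave 6 to 390 higher and 1 to 138 lower genes. Centring on the median, the brighter probe sets and the mean of all probe sets kept both counts within 1.5 times.

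At the study's thresholds (0 higher, 1 lower), the higher probe sets numbered 3 with array weights, 1 among brighter probe sets and 123 with the name ending as a block. The lower ones numbered 0 with all 27 tumors, a trend and robust prior, a plain linear model, age, age and size, the upper quartile, the GAPDH difference or the name ending, 3 with array weights, 10 without the 2 arrays, and 0 to 2 with 1 tumor left out. In the comparison reported, a 2-fold threshold changed neither count. After quantile normalization again, 80 of 82 higher calls kept their sign in grade III and 1 passed there.

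Of 962 list medians under 26 alternatives, 38 moved by more than the spread between tumors. With the name ending as a block the medians were 1.68 for mitosis, 0.70 for DNA replication, 0.10 for DNA repair, -0.38 for the cytosolic and 0.34 for the mitochondrial ribosome, 1.32 for glycolysis, -0.074 for smooth muscle, 2.47 for fibroblasts, 1.46 for endothelium, -1.75 for interferon response, -0.40 for antigen presentation, 1.91 for matrix proteases, 0.58 for focal adhesion, 0.033 for housekeeping and -0.42 for the qPCR genes. With age they were 0.41 for glycolysis, 0.29 for cholesterol synthesis, -1.32 for smooth muscle, 0.72 for apoptosis and 0.0018 for RAS and MAPK signalling. With age and size they were 0.32 for the proteasome, 0.49 for glycolysis, 0.25 for cholesterol synthesis and 0.72 for apoptosis, and with the GAPDH difference 1.29 for glycolysis and 1.36 for cholesterol synthesis. Chaperones had 0.24 after quantile normalization again and 0.46 with the mean of all probe sets, where the qPCR genes had -0.33. Brighter probe sets gave -0.82 for striated muscle and 1.66 for neutrophils. Housekeeping genes had 0.087 after quantile normalization again, 0.047 with the upper quartile, 0.052 without the 2 arrays and 0.064 to 0.36 with 1 tumor left out.

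Among named genes that were not called, the sign turned with the name ending as a block for GZMA (-0.094), GZMB (-0.53), CD79B (-0.054) and TAPBP (-0.011), with age and size for TAPBP (-0.11) and CLPX (0.061), and with age for CLPX (0.11). The cause of these changes was not tested. The number of arrays and, for 12 of the higher and 11 of the lower calls, a dimmer group below the median of its arrays limit what the differences show.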

Other observations

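Further called genes were read after their values were seen and fell into groups that no list above covered, so they carry no test as groups. Several belonged to the endoplasmic reticulum and its stress response. ATF6, a sensor of unfolded proteins, had the smallest p of all genes, with a log2 level of 4.62, 5.02 and 5.36 (lowest, median, highest) in metastatic tumors, against 3.21, 3.45, 3.45, 3.27 and 3.52 in non-metastatic tumors (difference 1.64 ± 0.13, SE; adjusted p = 0.00194 from limma). Its non-metastatic levels lay below the median of their arrays. MBTPS2, the protease that releases active ATF6, rose by 1.67, the chaperone DNAJB11 by 0.79, the transporter SLC35B1 by 1.09, the ubiquitin-like modifier UFM1 by 1.02 and STT3B, a subunit of the oligosaccharyl transferase, by 0.93. All 6 genes were without overlap, as were 159 of the 175 higher calls and 391 of all genes (2.59%). MTHFD2 (2.75) and SHMT2 (1.20), mitochondrial enzymes of folate metabolism, and P4HA3 (2.76), a collagen hydroxylase, rose too.

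On the lower side, PIK3R1, the regulatory subunit of PI3 kinase, stood at 8.78, 9.72 and 10.54 (lowest, median, highest) in metastatic and at 12.18, 12.23, 11.09, 11.86 and 11.51 in non-metastatic tumors (-2.13 ± 0.33, SE; adjusted p = 0.0267 from limma), and its 2 other probe sets had -2.49 and -2.05. The transcription factors FOXO1 (-1.49), BCL6 (-1.44) and TFAP2C (-2.25) and the acetyltransferase KAT2B (-2.44) were lower, as were the circadian repressors PER1 (-1.36) and PER2 (-0.93), the KIT ligand KITLG (-2.41) and GFRA1 (-2.11), a receptor of the GDNF family. KAT2B, PER1, KITLG and GFRA1 overlapped between the groups. In grade III tumors KITLG was at -0.15, TFAP2C at -0.12 and FOXO1 at -0.18, and the interactions of these 3 genes with grade had unadjusted p of 0.0414, 0.0253 and 0.00402, none of which passed adjustment (limma).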
